A study of Mus musculus with 40 samples.

Results

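Respiratory complex I is described here through the protein-coding mouse genes whose symbols begin with *Nduf*, the name shared by its nuclear-encoded subunits and by many of its assembly factors. Gene symbols were matched to the Ensembl identifiers of the count tables, and no measured value entered the choice. The rule found 46 genes among 47643 gene rows: 38 with subunit names (*Ndufa*, *Ndufb*, *Ndufc*, *Ndufs* and *Ndufv*) and 8 assembly factors (*Ndufaf*). By role, 10 belong to the N module, 6 to the Q module, 9 to the proximal and 10 to the distal membrane arm, and *Ndufab1* encodes an acyl carrier protein. *Ndufa4* and *Ndufa4l2* carry the name for historical reasons, since NDUFA4 is now placed in cytochrome c oxidase. *Ndufb1* was not analysed here.

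The RNA-seq data comprised 40 libraries, 10 for each of 4 groups: hippocampus or frontal cortex, from pre-KD or post-KD recipients. Recipients were wild-type Swiss Webster mice, an outbred stock, raised germ-free and then colonized by gavage with stool that 1 of 10 paediatric epilepsy donors gave before a ketogenic diet (pre-KD) or while on it (post-KD). All recipients ate control chow and none ate the ketogenic diet, and by the methods they were female, 6 to 8 weeks old, and collected on day 4 after colonization, with 6 mice pooled per library. Replicate numbers are donor numbers, so each replicate links a pre-KD with a post-KD cohort, and each of the 20 cohorts gave 1 hippocampal and 1 frontal cortical library.

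Complex I takes electrons from NADH, passes them to ubiquinone and pumps protons across the inner mitochondrial membrane. Its matrix arm holds the N module, where NADH is oxidized, and the Q module, where ubiquinone is reduced, and its membrane arm does the pumping. The core subunits of the membrane arm are encoded in mitochondrial DNA, those of the matrix arm in the nucleus, and the accessory subunits around them are also nuclear. Neurons depend on this respiration for ion pumping and synaptic transmission, and inherited defects in many of these genes cause encephalopathies.

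Between 1140756 and 1947416 reads were counted per hippocampal library and between 1188447 and 2095352 per frontal cortical library, and the *Nduf* genes held between 0.352% and 0.494% of them. Counts are given as CPM, counts scaled to library size after 1 TMM normalization over all libraries. In 9 of 40 libraries (3 hippocampal pre-KD and 2 in each other group) 4 Y-linked genes summed to over 10 CPM, reaching 179 CPM, so these pools went against the stated sex; results are also given without them. Region markers matched the labels: 5 of 6 hippocampal markers were higher in the hippocampus at an adjusted p under 0.05, and 3 of 6 cortical markers were lower there, with 1 higher. The frontal cortical libraries also held striatal transcripts, whose 7 markers summed to between 500 and 1103 CPM against 33.0 to 295 CPM in the hippocampus. The hippocampal libraries held choroid plexus transcripts, whose 6 markers summed to between 481 and 4387 CPM against 1.05 to 606 CPM.

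The *Nduf* genes are compact and often sit next to another start site. Their median span was 8089.5 bases against 17666 over the 21620 protein-coding genes in the tables, and 21 of 46 (45.7%) had the start of an opposite-strand protein-coding gene within 1000 bases, against 10.9% of all. RefSeq promoters (build GRCm38.p6, 250 bases before to 50 after each start) were available for 40 of the 46 genes, as 42 windows. They were searched on both strands for the letters bound by factors known to drive nuclear genes of respiration. The YY1 letters AAGATGGC were found in 8 of 42 windows (19.05%) against 2.75% of all promoters and 3.11% of those of protein-coding genes. The NRF1 letters GCATGCGC, whose reverse complement overlaps them, were found in 5 (11.9%) against 2.71% and 3.65%, and the ETS letters CCGGAAGT in 1 (2.38%) against 3.89% and 5.35%. With the ETS letters 1 base shorter the direction turned, at 14.29% against 8.86% and 11.88%. A match describes the letters and does not show binding.

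All 8 YY1 matches lay on the gene's own strand, with their first base between 11 and 39 bases from the start site, and in 7 of the 8 the ATG within the match was an annotated start codon. Over promoters of protein-coding genes, 66.5% of 647 matches lay on the gene's own strand and 27.0% held the start codon. The matches are shown because their place at the start codon recurs between genes of different modules. Each is 5′ to 3′ on the gene's strand, with the YY1 letters in capitals.
Ndufs6, chr13:73328433-73328459, minus strand: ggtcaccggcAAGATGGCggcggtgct
Ndufa3, chr7:3617385-3617412, plus strand: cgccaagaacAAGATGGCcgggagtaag
Ndufs7, chr10:80249463-80249490, plus strand: ggccgaggccAAGATGGCggcgctggcg
Ndufa9, chr6:126849098-126849125, minus strand: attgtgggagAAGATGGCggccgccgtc
Ndufs4, chr13:114388045-114388069, minus strand: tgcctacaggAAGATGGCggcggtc
Ndufc1, chr3:51408916-51408943, minus strand: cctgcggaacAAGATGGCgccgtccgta
Ndufb8, chr19:44555393-44555414, minus strand: ggagaaggtgAAGATGGCtgcc
Ndufaf8, chr11:120098934-120098961, plus strand: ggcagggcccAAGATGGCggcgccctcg
*Ndufaf8*, encoding a partner of the assembly factor NDUFAF5, is the exception whose ATG was not the annotated start codon. The NRF1 letters lay upstream of the start in *Ndufa6*, and close to it in *Ndufa8*, as shown next with those letters in capitals. The genes in these lines were chosen by their matches.
Ndufa6, chr15:82354357-82354384, minus strand: ccgcggtagaGCATGCGCattgcagagc
Ndufa8, chr2:36049329-36049356, minus strand: cgctggagacGCATGCGCagatggtacc

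Levels between genes were compared per kilobase of annotated exons. The methods and labels name a TruSeq kit, while the key resources list also names a 3′ kit, with which counts would not scale with length, so the order below holds only for the former. *Ndufa2*, an N module subunit, was the highest in both regions by this length, at 292 ± 70.4 CPM per kilobase in hippocampal and 349 ± 61.0 in frontal cortical libraries (SD, n = 20 libraries). It was followed by *Ndufb9* of the distal membrane arm (233 ± 34.5 and 245 ± 48.2 CPM per kilobase) and *Ndufa5* of the Q module (175 ± 46.5 and 217 ± 46.0). Per kilobase of the longest transcript *Ndufb9* came first in both regions, at 341 against 292 CPM for *Ndufa2* in the hippocampus and 359 against 349 in the frontal cortex. In CPM not divided by length, *Ndufa10*, a proximal membrane arm subunit named after its values were seen, was highest in both regions. It had 255 ± 63.1 and 281 ± 48.4 CPM, against 167 ± 40.3 and 200 ± 34.9 for *Ndufa2*. The lowest was *Ndufa4l2*, a paralog of *Ndufa4* known for its induction in hypoxia, at 0.162 ± 0.606 and 0.511 ± 1.49 CPM per kilobase, with 24 reads in all 40 libraries. Next to last came *Ndufaf7*, encoding a mitochondrial methyltransferase, at 3.71 ± 3.63 and 3.77 ± 4.28 CPM per kilobase.

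As a group, assembly factors were lower than the subunit-named genes. The median over the 8 was 10.2 CPM per kilobase in hippocampal and 9.54 in frontal cortical libraries, against 72.1 and 63.1 over the 38 subunit-named genes. All 8 lay below the subunit median in both regions, and *Ndufaf8* was the highest of them at 44.4 ± 20.9 and 56.9 ± 21.3 CPM per kilobase. Some subunit-named genes were as low: *Ndufs5*, an intermembrane-space subunit, was at 4.17 ± 3.96 and 5.34 ± 5.83 CPM per kilobase, and *Ndufab1* was at 5.73 ± 3.31 and 4.83 ± 1.90. Of the *Ndufs5* transcript, 46.9% matched a pseudogene at 95% identity or more. That pseudogene had 83 reads over all libraries, against 271 for *Ndufs5*. Reads matching both may have gone uncounted, so the level of *Ndufs5* is uncertain. Neighbours in the order mostly did not differ beyond their spread. Of 45 neighbouring pairs, 44 in hippocampal and 43 in frontal cortical libraries were closer than 1 SD.

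**Figure D1:**
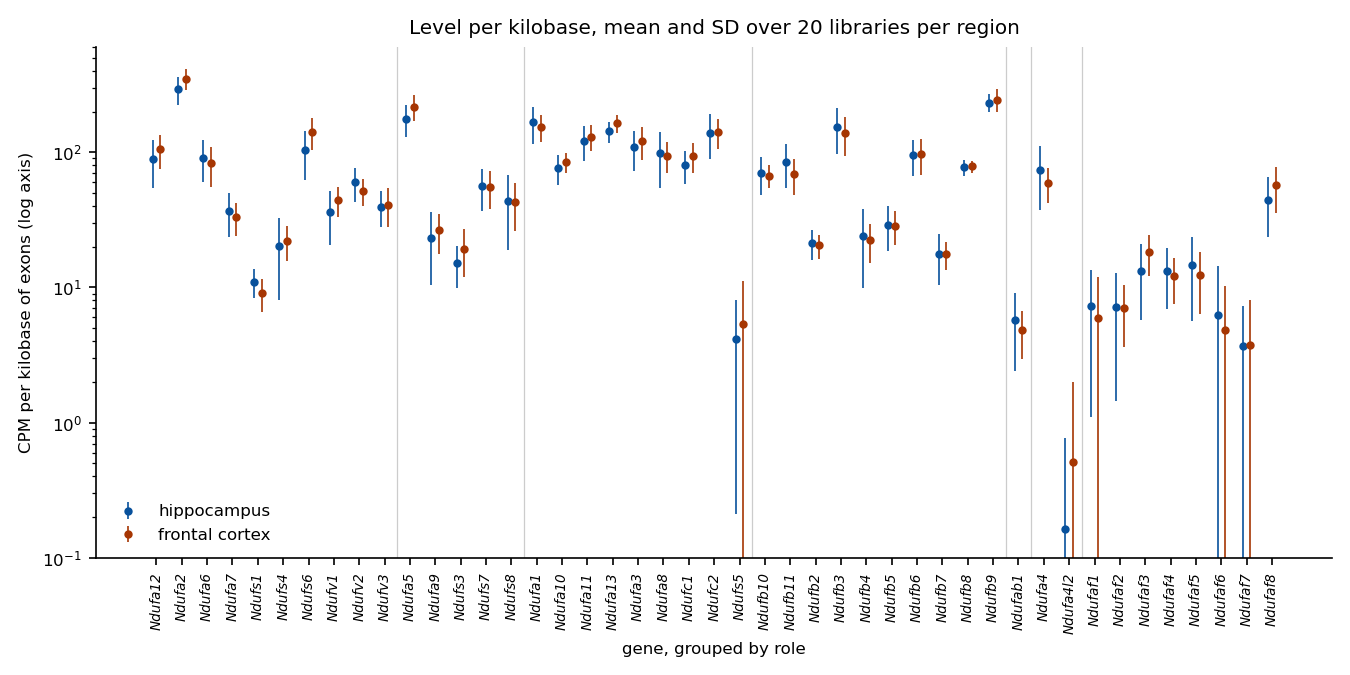
Level of 45 of the *Nduf* genes in CPM per kilobase of exons (log axis) in the hippocampus (blue) and frontal cortex (brown), as mean and SD over 20 libraries, with genes grouped by role between grey lines and error bars that reach 0 drawn to the axis. *Ndufa2* was highest in both regions by this length, though not per kilobase of the longest transcript or in CPM not divided by length. The 8 assembly factors at the right lie below the subunit median of 72.1 and 63.1 CPM per kilobase.

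The nuclear core subunits, which carry the flavin, the iron-sulphur clusters and the quinone site, spanned a wide range of levels. In the hippocampus *Ndufv2*, an iron-sulphur subunit of the N module, had 59.9 ± 16.9 CPM per kilobase and *Ndufs7*, at the quinone site, had 56.3 ± 19.4. *Ndufs8*, with 43.2 ± 24.2, also carries iron-sulphur clusters, and *Ndufv1*, with 36.2 ± 15.5, binds NADH. *Ndufs3* had 15.1 ± 5.22, and *Ndufs1*, the largest of them as a protein, had 11 ± 2.67. In the frontal cortex *Ndufs7* (55.3 ± 17.5) stood above *Ndufv2* (51.9 ± 12), within 1 SD, and *Ndufs3* (19.4 ± 7.43) and *Ndufs1* (9.07 ± 2.49) were again the lowest. Per kilobase of its longest transcript, the hippocampal level of *Ndufs1* was 33.6 CPM. Of the *Ndufs3* transcript, 75.7% matched its pseudogene at 95% identity or more, and that pseudogene had 10 reads in 40 libraries. Reads matching both may have gone uncounted, so the level of *Ndufs3* is uncertain.

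The mitochondrially encoded partners were far more abundant. *mt-Nd4*, a proton-pumping subunit, had 17174 ± 2905 CPM per kilobase in hippocampal and 17742 ± 2861 in frontal cortical libraries, and *mt-Nd1*, which forms part of the quinone site, had 10153 ± 939 and 10904 ± 1048. *mt-Nd6*, the subunit gene on the other strand, had 104 ± 46.3 and 70.0 ± 35.4, within the range of the nuclear genes. *mt-Nd3* had 4 reads and *mt-Nd4l* had 0 in all 40 libraries, so neither could be compared.

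Summed over the 38 subunit-named genes, CPM changed little between libraries. In the hippocampus the sum ran from 3612 through a median of 4041 to 4436 CPM in pre-KD libraries and from 3605 through 4061 to 4492 in post-KD libraries. Across frontal cortical libraries it ran from 3824 through 4172 to 4315 CPM pre-KD and from 4094 through 4218 to 4720 post-KD. The groups overlapped in both regions, and the sum was higher post-KD for 4 of 10 donors in the hippocampus and 6 of 10 in the frontal cortex. The coefficient of variation of the sum was between 4.49% and 6.14% in the 4 groups. The 8 assembly factors summed to 186 ± 40.5 CPM pre-KD and 197 ± 41.1 post-KD in the hippocampus and to 216 ± 55.1 and 181 ± 39.1 in the frontal cortex (SD, n = 10), also overlapping.

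**Figure D2:**
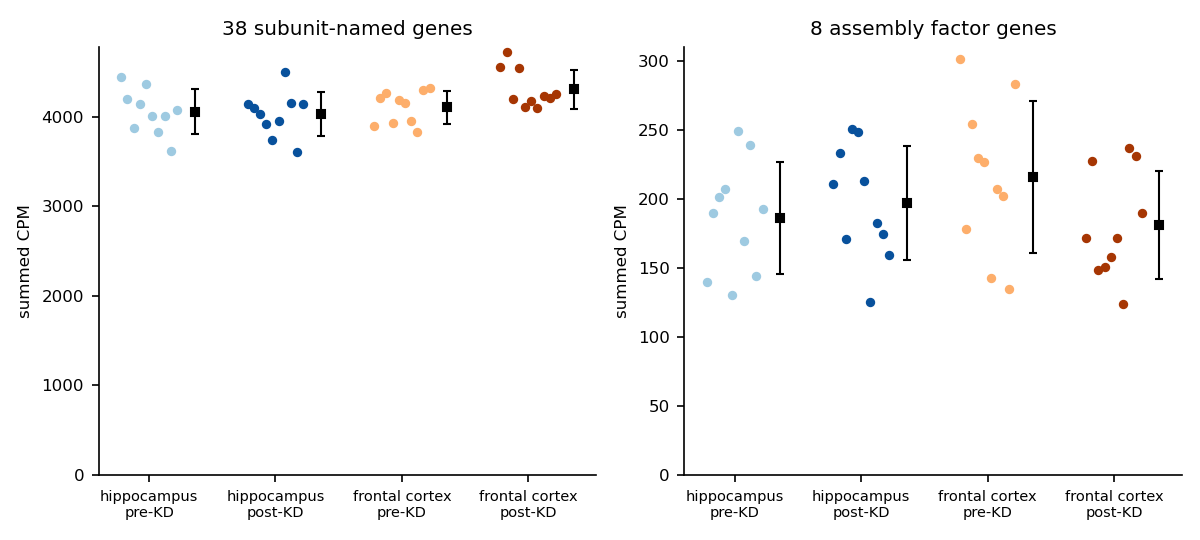
Summed CPM of the 38 subunit-named genes (left) and the 8 assembly factor genes (right) in each library (points, 10 per group), with the mean and SD of each group as a black square and bar. The pre-KD and post-KD points overlap in both regions, between 3605 and 4720 CPM for subunits.

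Single genes varied far more than their sum, which follows from summing genes that are weakly correlated. The coefficient of variation had a median of 35.9% over 20 hippocampal and 26.3% over 20 frontal cortical libraries over the 38 subunit-named genes, where counting error alone would give a median of 8.21% and 7.76%. The variance was a median of 17.9 and 10.2 times that of counting error, and over 2 times for all 38 in each region. Genes of like count behaved alike, with medians of 17.1 over 2670 genes and 11.9 over 2573. *Ndufb8*, a distal membrane arm subunit named after its values were seen, had the lowest coefficient of variation in the frontal cortex, 10.6%. The spread of a subunit was not shared with the other subunits: the median Pearson correlation over 630 pairs of 36 subunit-named genes averaging at least 20 CPM was 0.009 in hippocampal and 0.003 in frontal cortical libraries, against 0.006 and 0.002 for all pairs of genes in that range. These correlations describe pairs that share 20 libraries and their depth. Over 10 pairs of 5 assembly factors the medians were 0.098 and 0.205.

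**Figure D3:**
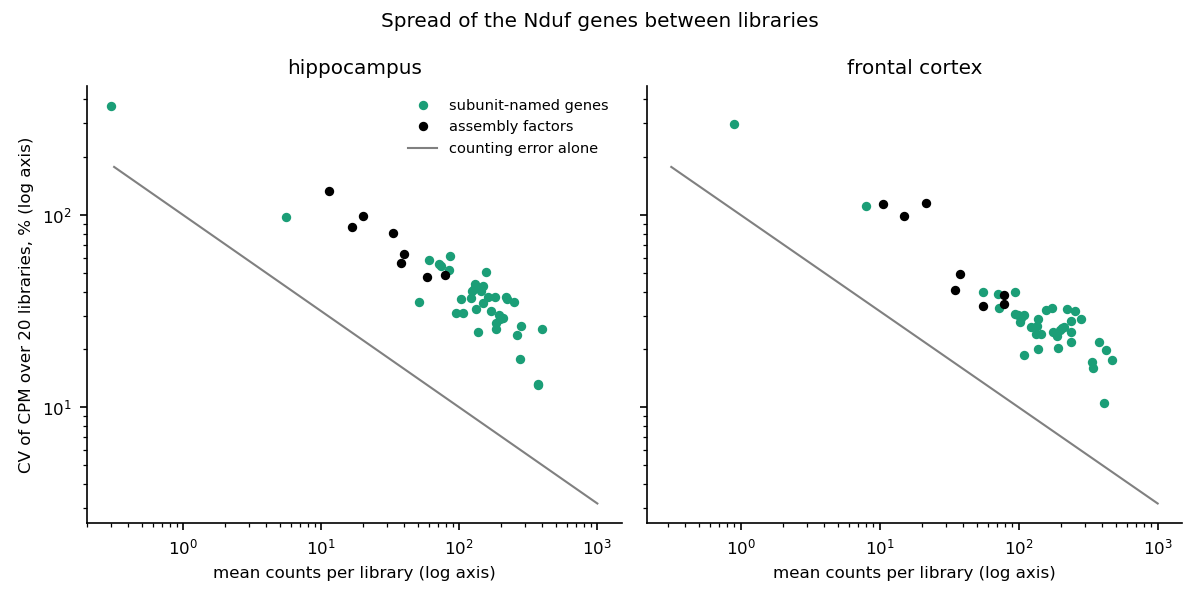
Coefficient of variation of CPM over 20 libraries (log axis) against mean counts per library (log axis) for subunit-named genes (green) and assembly factors (black) in each region, with the grey line at the value counting error alone would give. Every gene lies above the line, and the subunit medians are 35.9% and 26.3%.

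The first question of the design was whether brains of post-KD recipients differed from those of pre-KD recipients. In the hippocampus, 45 of the 46 *Nduf* genes had at least the 10 summed counts needed for testing, *Ndufa4l2* being the exception. With edgeR's quasi-likelihood test, 1 of 45 had an unadjusted p under 0.05, against 10.1% of 17529 genes, and 0 passed after Benjamini-Hochberg adjustment over all genes, against 0.0057%. Directions were mixed, with 19 higher and 26 lower and a median log2 difference of -0.06, against -0.01 over all genes. DESeq2 also gave 1 at an unadjusted p under 0.05, against 3.42% of all genes, but it was *Ndufb9*, and 0 after adjustment. With the donor as a block 1 of 45 was called at an unadjusted p under 0.05, against 1.99% of all genes. Once filterByExpr had removed low genes, 43 were tested and 0 had an unadjusted p under 0.05, against 2.32% of all. In bulk tissue, fewer cells of a type and less RNA per cell cannot be told apart.

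*Ndufs8*, whose product carries iron-sulphur clusters of the Q module, was the gene past the unadjusted threshold. Its hippocampal CPM ran from 26.5 through a median of 59.0 to 105 in pre-KD libraries and from 4.15 through 41.1 to 88.4 in post-KD libraries. The groups overlapped, and 7 of 10 donors had the lower value post-KD. The log2 difference was -0.70 ± 0.33 (SE, unadjusted p = 0.0382, adjusted p = 0.423, edgeR). Without the hippocampal libraries with Y-linked reads it was -0.79 (unadjusted p = 0.0352, adjusted p = 0.408, edgeR), and with the donor as a block it was -1.01 (unadjusted p = 0.00467, adjusted p = 1, edgeR). Leaving out replicate 1, 2, 4, 6, 7 or 9 raised the unadjusted p over 0.05, to at most 0.101. The adjusted p ran from 0.239 to 1 over the alternatives other than leaving out 1 donor. Striatal markers moved the same way in these libraries: all 6 tested had the lower value post-KD, 1 at an unadjusted p under 0.05, and the 7 summed to between 79.2 and 295 CPM pre-KD and between 33.0 and 209 post-KD. In other lists 1 of 8 neuronal markers was lower and 1 of 6 oligodendrocyte markers was higher at an unadjusted p under 0.05 (edgeR). Of 6 hippocampal markers, 1 was higher and 1 lower at that threshold. Astrocyte, microglial, endothelial, choroid plexus, cortical and blood lists had 0. The part of any of these markers in the *Ndufs8* value was not tested. Frontal cortical *Ndufs8* had 52.6 ± 21.1 CPM pre-KD and 57.5 ± 22.7 post-KD (SD, n = 10), with a log2 difference of 0.12 ± 0.24.

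Among other nuclear core genes described in the hippocampus, log2 differences ran from -0.32 ± 0.25 for *Ndufv1* to 0.09 ± 0.20 for *Ndufv2*, with *Ndufs1* at 0.07 ± 0.23, *Ndufs3* at -0.11 ± 0.40 and *Ndufs7* at -0.15 ± 0.23. None of these had an unadjusted p under 0.05 with edgeR or DESeq2. By role, 2 of 10 N module genes, 1 of 6 Q module genes, 5 of 9 proximal and 5 of 10 distal membrane arm genes had the higher value post-KD. The 95% interval of the log2 difference (under a normal approximation) lay inside a 2-fold change for 34 of 45 genes and inside a 1.5-fold change for 13. Its half-width had a median of 0.48 and ran from 0.30 to 2.42.

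In the frontal cortex all 46 genes were tested, and 1 had an unadjusted p under 0.05, against 9.68% of 17873 genes, with 0 after adjustment against 0.0056%. A majority was higher post-KD, 27 against 19, with a median log2 difference of 0.05 against 0.01 over all genes. With the donor as a block 3 had an unadjusted p under 0.05 (*Ndufa3*, *Ndufa6* and *Ndufaf2*), against 3.07% of all genes, and DESeq2 gave 4 (*Ndufa1*, *Ndufa3*, *Ndufaf2* and *Ndufaf8*), against 4.62%, both with 0 after adjustment, against 0.0168% and 0.0112%. After filterByExpr *Ndufa1*, a membrane arm subunit encoded on the X chromosome, was the only one of 43, against 4.06% of all. *Ndufa1* and *Ndufa6* were named after their values were seen.

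*Ndufa3*, a small subunit of the proximal membrane arm, ran from 65.1 through a median of 98.7 to 197 CPM in pre-KD frontal cortex and from 108 through 142 to 162 CPM post-KD. The groups overlapped, and 8 of 10 donors had the higher value post-KD. The log2 difference was 0.33 ± 0.16 (SE, unadjusted p = 0.0472, adjusted p = 0.50, edgeR). It was 0.44 without the libraries with Y-linked reads (unadjusted p = 0.0135, adjusted p = 0.250, edgeR) and 0.38 with the donor as a block (unadjusted p = 0.0239, adjusted p = 1, edgeR). Leaving out replicate 3, 4, 7, 8 or 10 raised the unadjusted p over 0.05, to at most 0.150. In the hippocampus its log2 difference was 0.27 ± 0.21, from 100 ± 30.9 to 121 ± 39.1 CPM (SD, n = 10).

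**Figure D4:**
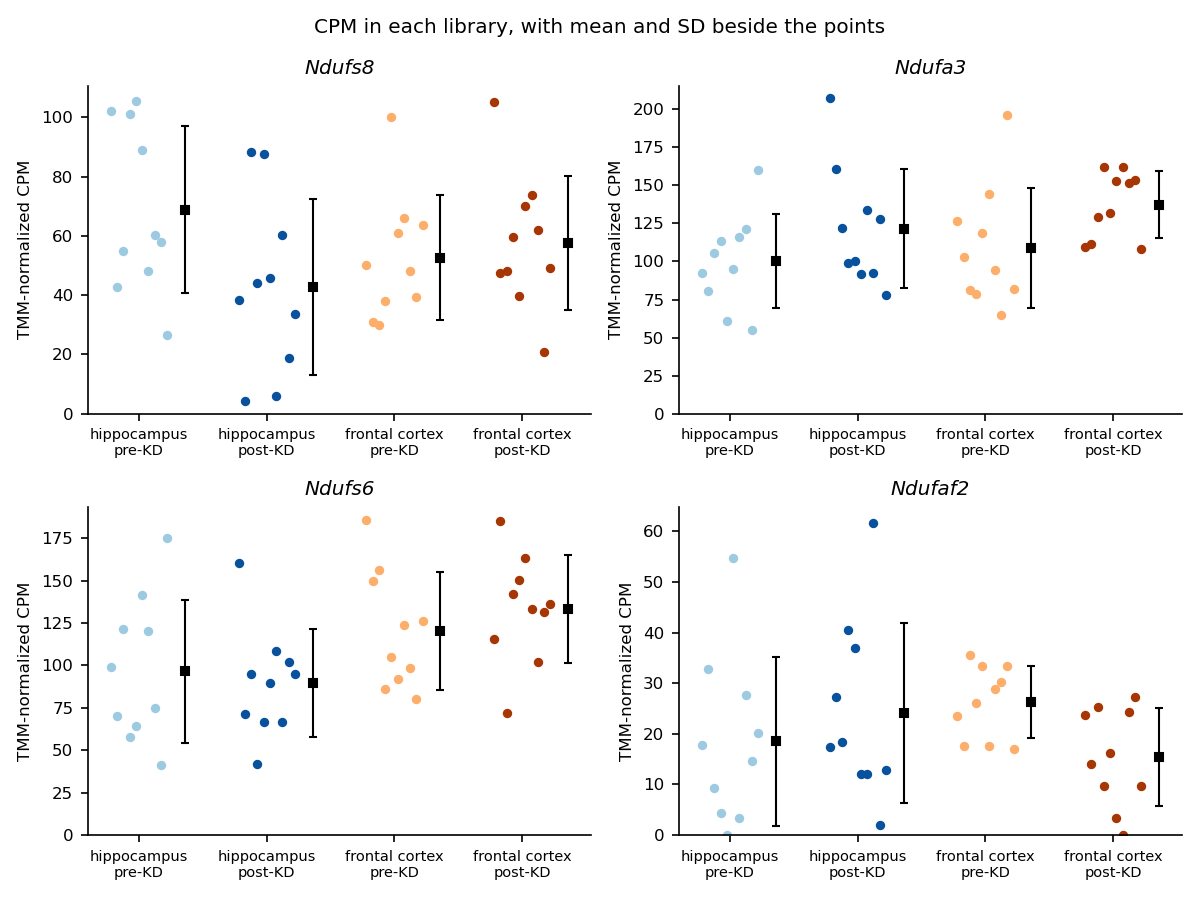
CPM of *Ndufs8*, *Ndufa3*, *Ndufs6* and *Ndufaf2* in each library (points, 10 per group), with the mean and SD of each group as a black square and bar. Post-KD hippocampal *Ndufs8* reaches down to 4.15 CPM, post-KD frontal cortical *Ndufa3* runs from 108 to 162 CPM, and *Ndufs6* is lower in the hippocampus than in the frontal cortex.

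The frontal cortical core genes described here lay between -0.28 ± 0.20 for *Ndufs1* and 0.16 ± 0.19 for *Ndufs7* on the log2 scale, with *Ndufs3* at -0.20 ± 0.26, *Ndufv1* at -0.08 ± 0.16 and *Ndufv2* at 0.07 ± 0.16. By role, 6 of 10 N module genes, 4 of 6 Q module genes, 7 of 9 proximal and 6 of 10 distal membrane arm genes had the higher value post-KD. The frontal cortical libraries spread less, and the 95% interval lay inside a 2-fold change for 40 of 46 genes and inside a 1.5-fold change for 25. Blood and striatal markers moved with this comparison. Of 6 striatal markers tested, 2 were higher post-KD at an unadjusted p under 0.05, and the 7 summed to between 500 and 1032 CPM pre-KD and between 715 and 1103 post-KD. Of 3 haemoglobin genes tested, 2 were higher at an unadjusted p under 0.05, and 4 haemoglobin genes summed to between 387 and 1143 CPM pre-KD and between 547 and 1375 post-KD. The part of either in the values of the *Nduf* genes was not tested.

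The assembly factors, which hold subcomplexes together during construction and are absent from the finished enzyme, gave no call in either region with edgeR without a block. In the frontal cortex 7 of 8 had the lower value post-KD, and in the hippocampus 3 of 8. *Ndufaf2*, a paralog of *Ndufa12* that occupies its place on a late intermediate, ran from 17 through a median of 27.4 to 35.5 CPM pre-KD and from 0 through 15.1 to 27.3 CPM post-KD in the frontal cortex, with 9 of 10 donors lower post-KD and overlapping groups. Its log2 difference was -0.78 ± 0.42 (unadjusted p = 0.0683, adjusted p = 0.596, edgeR), and the unadjusted p ran from 0.00757 to 0.0723 over the alternatives other than leaving out 1 donor, under 0.05 with the donor as a block and with DESeq2. Exons of *Ndufaf2* overlap the opposite-strand gene *B230220B15Rik* over 65.6% of their bases, and with an unstranded kit their reads cannot be told apart. *Ndufaf8* had a frontal cortical log2 difference of -0.46 ± 0.24 (unadjusted p = 0.0623, adjusted p = 0.576, edgeR), from 55.0 ± 21.1 to 39.9 ± 9.69 CPM (SD, n = 10).

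The other assembly factors were too low or too variable for small changes. Frontal cortical *Ndufaf1*, which works with ECSIT and ACAD9 on the membrane arm, was at 0.92 ± 0.72 on the log2 scale, from 6.10 ± 5.31 to 11.6 ± 11.2 CPM. *Ndufaf3* and *Ndufaf4*, which act together on the Q module, were at -0.22 ± 0.30 and -0.12 ± 0.25, *Ndufaf5*, which modifies NDUFS7, at -0.10 ± 0.38, *Ndufaf6* at -0.26 ± 0.85 and *Ndufaf7* at -0.36 ± 0.59. The hippocampal values were -0.06 ± 0.83 for *Ndufaf1*, 0.37 ± 0.58 for *Ndufaf2*, 0.40 ± 0.50 for *Ndufaf3*, 0.04 ± 0.33 for *Ndufaf4*, -0.24 ± 0.48 for *Ndufaf5*, 0.60 ± 1.02 for *Ndufaf6*, 0.42 ± 0.79 for *Ndufaf7* and -0.24 ± 0.39 for *Ndufaf8*. *Ndufaf6* had no read in 12 of 40 libraries. Of 11 other complex I assembly genes from a fixed list, 0 had an unadjusted p under 0.05 in either region with edgeR.

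**Figure D5:**
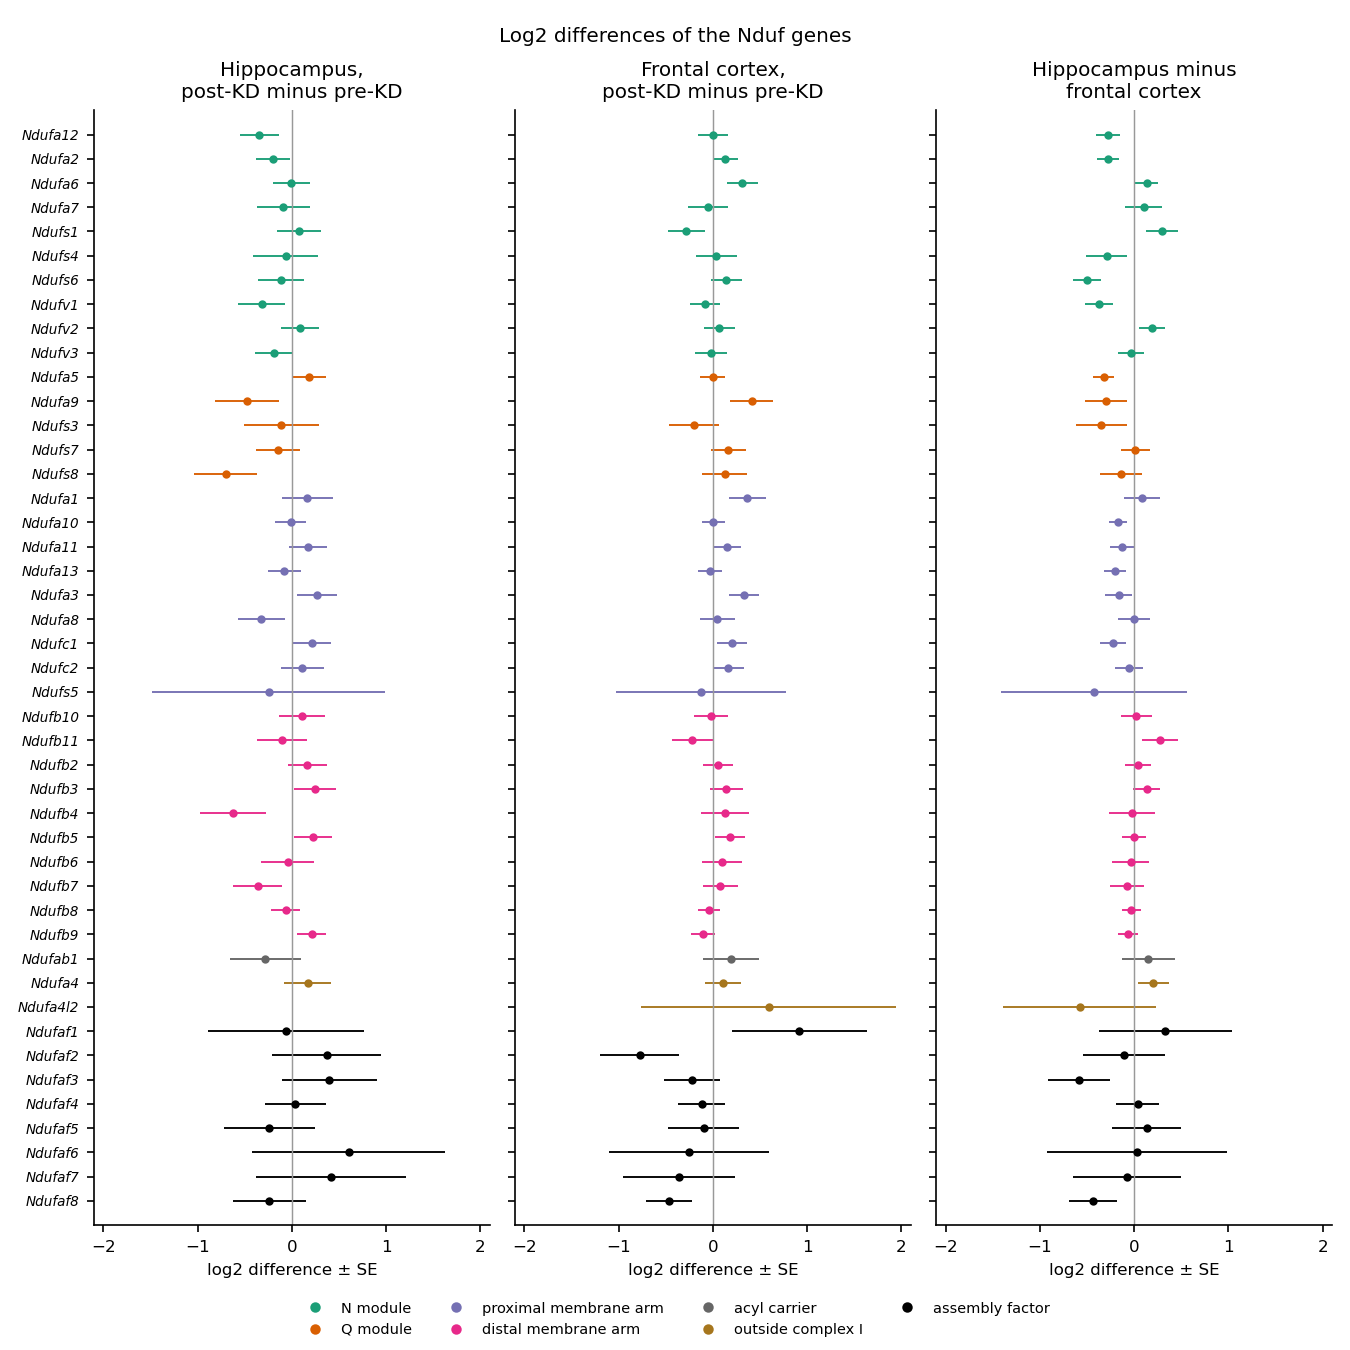
Log2 difference and SE from edgeR for 45 of the *Nduf* genes, post-KD minus pre-KD in the hippocampus (left) and frontal cortex (middle), and hippocampus minus frontal cortex (right), coloured by role. Points lie on both sides of 0, and the bars of *Ndufs5*, *Ndufaf1*, *Ndufaf6* and *Ndufaf7* are among the widest in each panel.

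Whether the post-KD difference itself differed between regions was tested with a term for each cohort. At an unadjusted p under 0.05 there were 3 of 46 genes, against 2.22% of 19422, and 0 after adjustment, against 0.0154% (edgeR). DESeq2 also gave 3 and 0, with 4.89% of all genes at an unadjusted p under 0.05. For *Ndufs8* the hippocampal minus the frontal cortical difference was -1.08 ± 0.45 on the log2 scale (unadjusted p = 0.0159, adjusted p = 1, edgeR). For *Ndufaf2* it was 1.84 ± 0.85 (unadjusted p = 0.0309, adjusted p = 1, edgeR), and for *Ndufa9*, a Q module subunit that binds a nucleotide and was named after its values were seen, it was -0.92 ± 0.45 (unadjusted p = 0.0402, adjusted p = 1, edgeR). *Ndufa9* ran from 15.4 through 52.4 to 109 CPM pre-KD and from 9.27 through 40.1 to 84.6 post-KD in the hippocampus, and from 21.9 through 46.7 to 70.5 and from 39.4 through 68.4 to 77.8 in the frontal cortex. Without the libraries with Y-linked reads the *Ndufa9* value was -0.89 (unadjusted p = 0.0998, edgeR), while *Ndufs8* and *Ndufaf2* stayed under the unadjusted threshold. Without the cohort term *Ndufs8* (unadjusted p = 0.0639) and *Ndufaf2* (unadjusted p = 0.116) did not reach it (edgeR), nor did *Ndufaf2* after filterByExpr. The call was also lost without replicate 1 or 2 for *Ndufs8* (at most 0.0779), 4, 5 or 7 for *Ndufaf2* (at most 0.125) and 1, 4, 8 or 10 for *Ndufa9* (at most 0.136). By the same test 4 of 6 striatal markers, 2 of 3 haemoglobin genes and 1 of 5 endothelial markers were lower at an unadjusted p under 0.05, and their part in these values was not tested.

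The 2 regions of the same cohorts were compared next, as hippocampus minus frontal cortex. With edgeR, 5 of 46 genes had an unadjusted p under 0.05, against 10.9% of 19422, all lower in the hippocampus, and 1 passed after adjustment, against 2.85%. DESeq2 gave 9 and 1, against 13.7% and 5.32% of all genes. Over all genes, 1578 of 2117 unadjusted and 385 of 554 adjusted edgeR calls were lower in the hippocampus. The regions were deposited separately, so region and any difference in handling cannot be told apart. The median log2 difference of the 46 was -0.06, against -0.17 over all genes, and the latter was -0.14 with RLE size factors and -0.07 with DESeq2. The 4 N module genes among the 5 were *Ndufs6*, *Ndufv1*, *Ndufa2* and *Ndufa12*, and the other, *Ndufa5*, belongs to the Q module.

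*Ndufs6*, a zinc-binding accessory subunit added late to the N module, fell in the hippocampus relative to the frontal cortex. It ran from 41.4 through a median of 92.1 to 175 CPM in the hippocampus and from 71.7 through 129 to 186 CPM in the frontal cortex, with overlapping ranges, and 16 of 20 cohorts were lower in the hippocampus. The log2 difference was -0.50 ± 0.15 (SE, adjusted p = 0.0281, edgeR). The call held with DESeq2 (-0.46, adjusted p = 0.0185), but not without replicate 2, 4, 5, 8 or 9 (adjusted p of at most 0.189, edgeR) or with RLE size factors (adjusted p = 0.0517). Without the 9 libraries with Y-linked reads it was -0.50 (adjusted p = 0.107, edgeR). The adjusted p ran from 0.0185 to 0.770 over the alternatives other than leaving out 1 donor, the highest in pre-KD libraries alone, where the log2 difference was -0.39. A pseudogene matches 37.9% of the *Ndufs6* transcript at 95% identity or more and had 14 reads in 40 libraries. How many reads matching both went uncounted was not tested. The regions also differed in markers of other tissue: 6 of 6 striatal genes tested were lower and 4 of 6 choroid plexus genes were higher in the hippocampus after adjustment. Summed neuronal markers ran from 4539 to 6149 CPM in the hippocampus and from 5131 to 6553 in the frontal cortex, and 4 of 8 were lower in the hippocampus at an unadjusted p under 0.05, 3 of them after adjustment. The part of these in the value was not tested.

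The other 4 had log2 differences of -0.37 ± 0.15 for *Ndufv1* (adjusted p = 0.227, edgeR), -0.32 ± 0.11 for *Ndufa5* (adjusted p = 0.111), -0.28 ± 0.12 for *Ndufa2* (adjusted p = 0.283) and -0.28 ± 0.13 for *Ndufa12* (adjusted p = 0.358). *Ndufa5* was lower in the hippocampus in 17 of 20 cohorts, *Ndufa2* in 15, *Ndufa12* in 13 and *Ndufv1* in 11. The unadjusted call was lost for *Ndufa12* without replicate 3, 5, 6 or 10 (p of at most 0.112), for *Ndufv1* without replicate 7 (0.0856) and for *Ndufa2* without replicate 5 (0.0582, edgeR). Without the libraries with Y-linked reads *Ndufv1* was at -0.58 with an adjusted p of 0.0415 (edgeR), in a range over its alternatives of 0.0415 to 0.938. *Ndufs1*, the other large N module subunit, lay the other way at 0.29 ± 0.17, and *Ndufv2* at 0.19 ± 0.14, neither passing adjustment. *Ndufa12* shares 29.1% of its transcript with a pseudogene that had 2200 reads in the 40 libraries, so part of its count is uncertain.

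The paralogs under the *Nduf* name differed in level, and their responses were not compared by a test. *Ndufa4* had 96.0 ± 51.0 CPM pre-KD and 109 ± 52.0 post-KD in the hippocampus and 78.6 ± 20.9 and 84.9 ± 25.9 in the frontal cortex (SD, n = 10), with log2 differences of 0.17 ± 0.25 and 0.11 ± 0.19. *Ndufa4l2* was at 0 in 35 of 40 libraries. *Ndufa12*, the subunit that takes the place of NDUFAF2, had post-KD minus pre-KD log2 differences of -0.34 ± 0.21 in hippocampal and 0.00 ± 0.16 in frontal cortical libraries.

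Of 9 regulators of mitochondrial biogenesis from a fixed list, 0 had an unadjusted p under 0.05 post-KD against pre-KD in either region with edgeR. Between regions *Ppargc1b*, a coactivator of respiratory genes, was lower in the hippocampus at -0.80 ± 0.25 on the log2 scale (adjusted p = 0.0429, edgeR), a call lost under 7 of 8 alternatives (adjusted p of up to 0.854) and without replicate 2, 3, 5, 6, 7, 8 or 9. *Yy1* and *Nrf1*, whose letters were searched for in the promoters, were at 0.22 ± 0.19 and -0.18 ± 0.59 in the same comparison. Of 5 mitochondrial complex I genes tested, 2 had an unadjusted p under 0.05 in the frontal cortex: *mt-Nd1* at 0.18 ± 0.05 and *mt-Nd6* at -1.02 ± 0.29, both with an adjusted p of 0.122 (edgeR), and 0 in the hippocampus. Between regions *mt-Nd1* (-0.10 ± 0.03, adjusted p = 0.00778) and *mt-Nd2* (-0.11 ± 0.02, adjusted p = 0.000218) were lower in the hippocampus (edgeR), both calls lost with DESeq2, with filterByExpr, without the cohort term and in pre-KD libraries alone, *mt-Nd1* also with RLE size factors and *mt-Nd2* also in post-KD libraries alone. The post-KD minus pre-KD value of *mt-Nd4* was 0.07 ± 0.06 in hippocampal and -0.09 ± 0.06 in frontal cortical libraries, and the difference between these was 0.16 ± 0.04 (adjusted p = 0.0342, edgeR). That call was lost with DESeq2, with filterByExpr, without the libraries with Y-linked reads, without the cohort term, and without any 1 of replicates 1, 2, 5, 6, 7, 8, 9 and 10, with an adjusted p of up to 1.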

How the data were processed

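The members, gene lists, motifs and tests were chosen with earlier results of these data known. Per the labels and the methods, the authors made unnormalized read counts per Ensembl gene by aligning 69-base paired reads to mm10 with STAR 2.5.2a and counting with HTSeq 0.6.0, and deposited 1 table per region. The annotation release is not given in the sources used here; 47224 identifiers matched GENCODE M21 and 419 did not. All 40 columns were used, 0 rows named no gene, and 0 of 180 pairs of libraries within groups were identical.

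Genes with at least 10 summed counts were tested with edgeR 4.0.16 (R 4.3.3, quasi-likelihood test, TMM, Benjamini-Hochberg adjustment over all genes), per region for post-KD against pre-KD without a block, and with a cohort term between regions. P-values for post-KD against pre-KD measure the spread between pooled cohorts. With the cohort term they measure the spread left between libraries within cohorts. SE is the log2 difference divided by the root of F. Alternatives included DESeq2 1.42.0, RLE size factors, other filters, the donor block, covariates and leaving out replicates; leaving out libraries with Y-linked reads was chosen after seeing the data. Donors pair cohorts by design; over 8157 genes averaging at least 20 counts, donor pairs correlated between -0.0467 and 0.0322. Counting error alone is the Poisson value. The procedure was tested on simulated data. Python 3.11.15, scipy 1.17.1 and matplotlib 3.10.9 were used.

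Named genes were those at an unadjusted p under 0.05 post-KD against pre-KD, up to 5 per direction at an adjusted p under 0.05 between regions, the nuclear core genes, the assembly factors, the 3 highest and lowest per kilobase, and paralogs; 1 gene is not reported here by name, and others are said to be named after their values were seen.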

Additional observations from a re-analysis of the deposited data

Results flagged for a closer look

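Single libraries stood apart by Dixon's criterion in 8 of 108 sets of 10 libraries examined (25 named genes and 2 sums in 4 groups). Chance flags about 1 in 20 where values are normally distributed. CPM cannot fall below 0, so that rate may not hold here. All 8 were the highest library of their set. In the hippocampus these were *Ndufab1* at 84.2 CPM in post-KD replicate 3, against 45.1 in the next library, *Ndufaf6* at 27.1 CPM in pre-KD replicate 6, against 8.60, and *Ndufa4l2* at 2.93 CPM in pre-KD replicate 2, where the median was 0. In the frontal cortex they were *Ndufaf7* at 61.7 CPM in pre-KD replicate 1, against 24.1, *Ndufs8* at 99.9 CPM in pre-KD replicate 5, against 66.0, *Ndufaf1* at 38.2 CPM in post-KD replicate 8, against 19.6, *Ndufv1* at 174 CPM in post-KD replicate 2, against 126, and *Ndufa4l2* at 6.80 CPM in post-KD replicate 10, with 0 in the other 9.

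The post-KD difference differed between hippocampus and frontal cortex at an unadjusted p under 0.05 for *Ndufs8* (-1.08), *Ndufaf2* (1.84) and *Ndufa9* (-0.92, log2 scale, edgeR interaction test), each with an adjusted p of 1.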

How the results depend on the processing

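No *Nduf* gene past a threshold changed direction under any alternative run. Counts of *Nduf* genes at an unadjusted p under 0.05 stayed few. Parentheses give the calls over all genes at the same threshold, with the number tested. In the hippocampus, where 1 was called, they were 2 with DESeq2 and the replicate block (931 of 17529). They were 2 with every gene kept (2931 of 20964) and 2 without the libraries with Y-linked reads (1629 of 16762). They were 0 with filterByExpr (221 of 9509), 0 with filterByExpr and robust dispersion (223 of 9509), and 0 to 2 leaving out 1 replicate (1636 to 1755 calls). In the frontal cortex, where 1 was called, they were 4 with DESeq2 (825 of 17873) and 4 with DESeq2 and the block (1096 of 17873). They were 2 with every gene kept (3035 of 21708), 2 with a neuron marker covariate (1708 of 17873) and 3 with the replicate block (548 of 17873). They were 3 without the Y-linked libraries (1599 of 17370), 0 with filterByExpr and robust dispersion (407 of 10033), and 0 to 3 leaving out 1 replicate (1570 to 1718 calls). Between regions, where 5 were called, they were 9 with DESeq2 (2660 of 19422), 3 without the cohort block (3475 of 19422) and 2 in pre-KD libraries alone (1208 of 17687). After adjustment, where 1 was called, they were 0 with RLE size factors, 0 in either condition alone and 0 to 2 leaving out 1 replicate. For the difference between regions the unadjusted counts ran from 1 to 4 leaving out 1 replicate (386 to 471 calls). The robust filter and the Y-linked setting were chosen after seeing the data, and the cause of these shifts was not tested.

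Counts over all genes moved more. In the hippocampus 1762 at an unadjusted p under 0.05 became 599 with DESeq2, 931 with DESeq2 and the block, 2931 with every gene kept, 221 with filterByExpr, 223 with robust dispersion added and 348 with the replicate block. The 1 adjusted call there became 1291 with every gene kept, 2 without the Y-linked libraries, 0 with DESeq2, with or without the block, with filterByExpr, with robust dispersion alone or after filterByExpr, and with the replicate block, and 0 to 1 leaving out 1 replicate. In the frontal cortex 1731 became 825, 1096, 3035, 407, 407 and 548 under those settings in the same order, and 1 adjusted call became 2 with DESeq2, 12 with DESeq2 and the block, 3 with the replicate block, and 0 with robust dispersion, alone or after filterByExpr. Without the libraries with Y-linked reads 1629 of 16762 genes in the hippocampus and 1599 of 17370 in the frontal cortex had an unadjusted p under 0.05, and with the neuron marker covariate 1708 of 17873 did in the frontal cortex. Between regions 2117 unadjusted and 554 adjusted calls became 3475 and 1935 without the cohort block, 1401 and 251 in post-KD libraries alone, and 1208 and 193 in pre-KD libraries alone, with 1033 adjusted with DESeq2. For the difference between regions 431 and 3 became 949 and 0 with DESeq2, 1767 and 348 without the block, and 0 adjusted with filterByExpr. The median level over the *Nduf* genes rose from 43.8 to 69.1 CPM per kilobase in the hippocampus and from 48.0 to 66.0 in the frontal cortex with the longest transcript as length. The ETS letters shortened by 1 base were in 14.29% of the *Nduf* promoters, against 8.86% of all and 11.88% of protein-coding promoters, and the shortened YY1 letters in 19.05%, against 6.34% and 6.30%.

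With the replicate block the hippocampal count of *Nduf* genes at an unadjusted p under 0.05 was again 1, and the count after adjustment was 0 in both regions. With 10 pooled libraries a group, the intervals given set what could be detected.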
